A study of Homo sapiens with 3 samples.

Results

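Long non-coding RNAs and the transcripts that carry small RNAs were examined in H2030-BrM3 cells, which derive from the human lung adenocarcinoma line H2030 and metastasize to brain. Members were taken by gene symbol from the platform annotation. A symbol had to begin with LINC or SNHG, end in -AS1, -AS2, -DT or -IT1, have the form MIR...HG, or be MALAT1, NEAT1, GAS5, H19, MEG3 or TUG1. This gave 614 probes for 510 genes among 47309 probes on the array, of which 30106 carried 1 gene symbol. RefSeq classed 502 of the 510 genes as lncRNA, 4 as antisense RNA and 1, TUG1, as protein-coding, while 3 symbols were not matched there.

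Cells with PARP1 shRNA-1 (hairpin 1), cells with PARP1 shRNA-2 (hairpin 2) and cells with a non-targeting shRNA (control) were each measured on 1 Illumina HumanHT-12 V4 array, 3 arrays in all. PARP1 codes for a nuclear enzyme that adds poly(ADP-ribose) to proteins at DNA breaks. All cells were grown for 1 day in RPMI 1640 with 10% FBS. The labels do not say whether the hairpin samples came from separate cultures. If they did not, a p-value reflects technical spread plus any difference between the 2 hairpins. With separate cultures, the difference between the hairpins would still be part of that spread. Both hairpin ratios share the 1 control array, whose own spread is not measured.

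Small nucleolar RNAs (snoRNAs) guide chemical modification of ribosomal and other RNAs, and in human cells most are cut from introns. Many SNHG genes exist as such hosts: the spliced exons code for no known protein and are often degraded by nonsense-mediated decay, while the intron survives as a snoRNA. MIR...HG genes likewise yield primary transcripts from which microRNAs (miRNAs) are cut. The suffix -AS marks a transcript antisense to the named gene, -DT a divergent transcript that starts next to the named gene's promoter and runs the other way, and -IT a transcript within an intron. LINC names are given to intergenic transcripts, and most have no known role.

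The miRNAs that identify the microRNA host genes described below are shown first. The arrays measured the host transcripts, not these miRNAs. Sequences are mature miRNAs from RefSeq, build GRCh38.p14, written 5′ to 3′, with the seed (bases 2 to 8, which pair with target mRNAs) in capitals. MIR100HG on chromosome 11, minus strand, and MIR99AHG on chromosome 21, plus strand, carry clusters whose 5p miRNAs share 3 seeds.
miR-100-5p, chr11:122152275-122152296, in MIR100HG: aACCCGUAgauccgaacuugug
miR-99a-5p, chr21:16539101-16539122, in MIR99AHG: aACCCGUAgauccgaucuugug
let-7a-5p, chr11:122146568-122146589, in MIR100HG: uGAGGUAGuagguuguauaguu
let-7c-5p, chr21:16539838-16539859, in MIR99AHG: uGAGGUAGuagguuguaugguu
miR-125b-5p, chr11:122099809-122099830, in MIR100HG, and chr21:16590253-16590274, in MIR99AHG: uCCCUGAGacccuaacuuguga
MIR181A2HG lies on chromosome 9, plus strand, and its 5p miRNAs share a seed.
miR-181a-5p, chr9:124692480-124692502: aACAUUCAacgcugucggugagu
miR-181b-5p, chr9:124693725-124693747: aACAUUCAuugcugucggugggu
MIR503HG on chromosome X and MIR9-1HG on chromosome 1, both on the minus strand, are shown by their 5p miRNAs.
miR-503-5p, chrX:134546371-134546393: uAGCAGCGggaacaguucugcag
miR-9-5p, chr1:156420392-156420414: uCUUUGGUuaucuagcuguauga

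Transcripts of several snoRNA hosts are known to open with a C followed by a pyrimidine run, a start they share with ribosomal protein mRNAs. Of 14 SNHG and GAS5 windows, only the 5 that hold CTTTC or CTTTT are shown. They run from 20 bases before to 30 bases from the RefSeq start site onward, 50 bases in all. They are written 5′ to 3′ on the transcribed strand (RefSeq, GRCh38.p14). In SNHG8 the match begins before the start site, so its RefSeq transcript does not open with that run. Capitals mark CTTTC or CTTTT.
SNHG5, chr6:85678704-85678753, minus strand: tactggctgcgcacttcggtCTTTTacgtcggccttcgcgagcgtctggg
SNHG12, chr1:28581844-28581893, minus strand: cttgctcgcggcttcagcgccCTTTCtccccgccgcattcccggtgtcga
SNHG32, chr6:31834896-31834945, plus strand: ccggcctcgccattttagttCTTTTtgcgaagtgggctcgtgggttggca
SNHG8, chr4:118278742-118278791, plus strand: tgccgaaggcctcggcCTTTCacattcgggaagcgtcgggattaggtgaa
SNHG4, chr5:139274081-139274130, plus strand: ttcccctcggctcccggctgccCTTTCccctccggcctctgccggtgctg
Promoters were matched for 388 of the 510 members. Either motif stood on the transcribed strand in 5 of 14 SNHG and GAS5 windows (35.7%), in 47 of 388 member windows (12.1%) and in 3004 of 27305 windows of all genes (11.0%). On the opposite strand the shares were 0 of 14, 13.9% and 9.73%. These matches describe the letters of the windows and say nothing of what binds or regulates there.

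Signals were deposited as intensities without normalization, with a detection p-value per probe. A probe with detection p under 0.01 is called above background. This held for 16350 probes with hairpin 1, 17420 with hairpin 2 and 16855 in the control, or 34.6%, 36.8% and 35.6%. Raw signals ran higher with hairpin 2, with array medians of 152.2 with hairpin 1, 161.7 with hairpin 2 and 153.6 in the control, so ratios below are on normalized log2 values. PARP1 itself had log2 values of 10.29 with hairpin 1 and 9.15 with hairpin 2, against 12.11 in the control, a mean log2 change of -2.39 ± 0.36 (SE from limma) with an adjusted p of 0.734 over 10692 genes. The epithelial markers EPCAM, KRT8, KRT18 and MUC1 were above background on all arrays, and KRT19, CDH1, KRT7, NKX2-1, NAPSA and SFTPB were not. PTPRC, CD3E, PECAM1 and VWF, which define leukocytes and endothelium, were not above background. Among markers of other cell types, 2 of 6 fibroblast genes, 2 of 6 leukocyte genes and 0 of 5 endothelial genes were above background on at least 1 array.

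Host transcripts of snoRNAs were the class most often above background in these cells. A probe was above background on at least 1 array for 13 of 17 SNHG and GAS5 genes (76.5%), 7 of 17 microRNA host genes (41.2%) and 12 of 33 divergent transcripts (36.4%). The share was 50 of 178 for antisense transcripts (28.1%), 2 of 8 for intronic transcripts and 37 of 253 for LINC genes (14.6%). In all, 122 of 510 members (23.9%) could be tested, against 10570 of 19534 other genes (54.1%), and 78 of the 122 were above background on all 3 arrays. By RefSeq order and spans, 19 members hold a snoRNA gene, and 15 of these could be tested (78.9%), against 107 of 488 members in the RefSeq table with none (21.9%). SNHG1 holds 9 such genes, GAS5 11, SNHG17 5, SNHG12 4 and SNHG5 2. Outside the SNHG and GAS5 genes, EPB41L4A-AS1, LINC02203, MIR99AHG and STX18-AS1 hold a snoRNA gene.

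**Figure D1:**
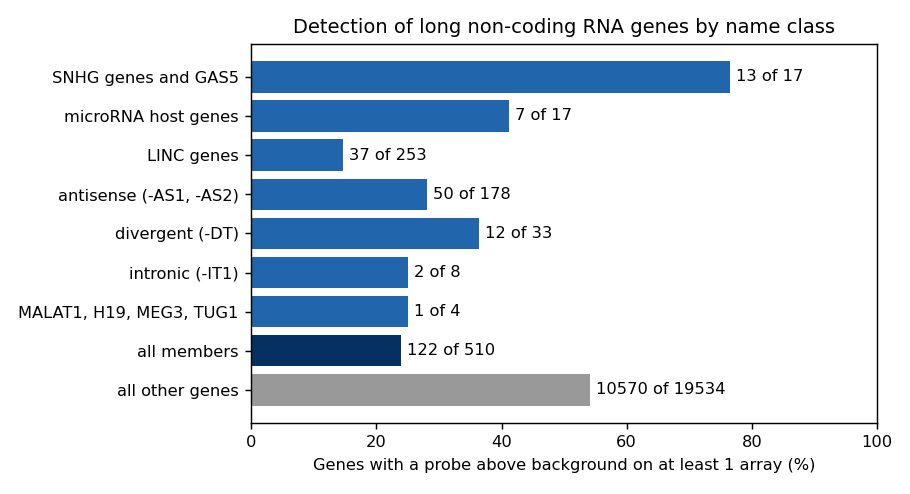
Detection of member genes by name class. Bars give the percent of genes in each class with a probe above background (detection p under 0.01) on at least 1 of the 3 arrays, from 14.6% of LINC genes to 76.5% of SNHG genes and GAS5, with all other genes at 54.1%.

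Several well-known members gave no usable signal. The MALAT1 probe, for an abundant nuclear RNA linked to lung cancer metastasis, read 146.5 with hairpin 1 and 143.3 with hairpin 2, against 144.9 in the control. GAS5, a snoRNA host, read 146.7 and 154.4 with the hairpins, against 148.7 in the control. H19, an imprinted RNA, read 153.3 and 159.2 with the hairpins, against 152.6 in the control, and the 2 probes for MEG3, also imprinted, ranged from 135.5 to 169.4 over the arrays. The MIR17HG probe, for the host of the miR-17 cluster, read 162.7 and 147.3 with the hairpins, against 153.6 in the control. None of these was above background on any array, which says nothing about the RNA beyond that probe. No probe in the annotation used here carried the symbol NEAT1.

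No member passed the test between the hairpins and the control. With limma and Benjamini-Hochberg adjustment, 0 of 122 members had an adjusted p under 0.05, as did 0% of the 10692 genes tested, and the lowest adjusted p of a member was 0.994. At an unadjusted p under 0.05 there were 8 members (6.56%), 5 higher and 3 lower with the hairpins, beside 3.52% of all genes. The median log2 ratio of the members was 0.02 with hairpin 1 and 0.01 with hairpin 2, beside 0.01 and 0.00 over all genes tested. Members were above the control with both hairpins in 45 of 122 cases (36.9%), below it with both in 36 (29.5%) and split in 41. Over all genes the shares were 33.8% above and 31.4% below. The median SE of a member's mean log2 change was 0.25, beside 0.15 over all genes.

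A size of 1.5-fold in the same direction with both hairpins was met by 7 members (5.74%), 1 higher and 6 lower, beside 0.973% of all genes tested, 0.365% higher and 0.608% lower. All 7 were below background on at least 1 array. Of the 78 members above background on all arrays, 0 met it, beside 0.217% of such genes in the whole table. Of the 44 other tested members, 7 met it (15.9%), beside 8.34% of all genes of that kind, where 5.33% were lower. The 6 lower members were above background in the control only, and the 1 higher member with the hairpins only. They passed the filter through the group where they are high, so their size is partly fixed by the filter, and nothing is read from these shares. Without background correction 0 members met the size, and 10 of the 12 members listed below as highest or lowest on all arrays had a log2 change smaller by over 1.5 times. Those values are given beside each member as uncorrected.

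**Figure D2:**
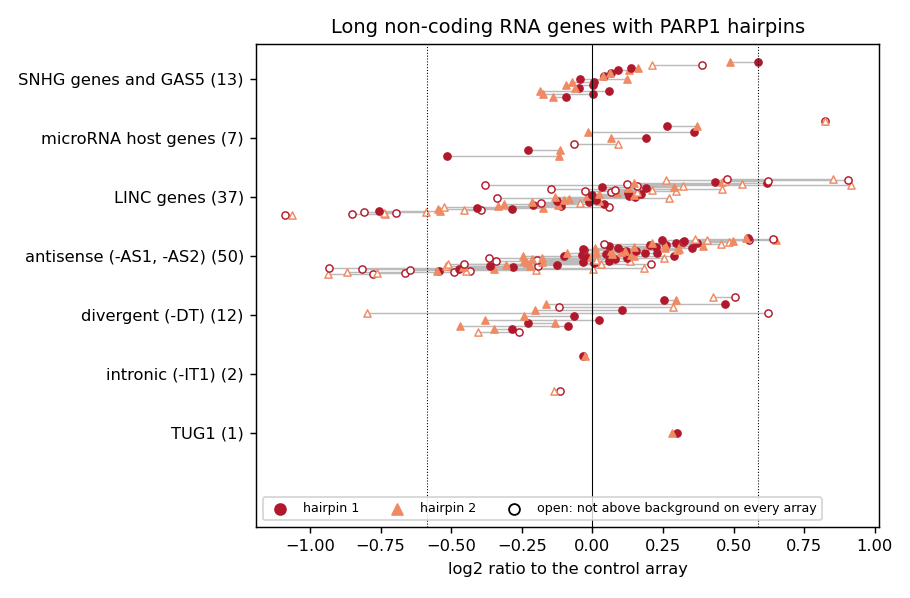
Log2 ratio to the control array for each of the 122 tested members, by name class. Circles are hairpin 1, triangles hairpin 2, a grey line joins the points of a gene, open symbols are genes not above background on all arrays, and dotted lines mark 1.5-fold. Both points lie past a dotted line for 7 genes, and all 7 are open.

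Among snoRNA hosts, SNHG12 stood furthest from the control. It had log2 values of 6.94 with hairpin 1 and 6.84 with hairpin 2, against 6.35 in the control, and a mean log2 change of 0.54 ± 0.21, or 0.23 uncorrected (limma SE, n = 2 hairpin arrays against 1; limma adjusted p = 0.994). Both hairpin arrays lay above the control. SNHG12 hosts SNORA16A, SNORA44, SNORA61 and SNORD99.

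SNHG5, host of SNORD50A and SNORD50B, had log2 values of 13.10 with hairpin 1 and 13.12 with hairpin 2, against 12.96 in the control. Its other probe gave log2 ratios of 0.07 with hairpin 1 and 0.21 with hairpin 2, so both probes lay above the control on both arrays. The next bright hosts had small log2 ratios. They were 0.07 and 0.06 for SNHG6, 0.09 and 0.13 for SNHG17, -0.05 and -0.06 for SNHG32, and 0.04 and 0.04 for SNHG8, with hairpin 1 and hairpin 2 in that order. SNHG1, the host of the SNORD22 and SNORD25 to SNORD31 group, had 0.00 with hairpin 1 and -0.09 with hairpin 2. SNHG15 had 0.00 and -0.07, SNHG9 -0.04 and 0.12, SNHG11 0.06 and -0.19, and SNHG10 -0.09 and -0.14, each in the same order. None of these 4 was on the same side of the control with both hairpins except SNHG10. A second SNHG15 probe, above background on all arrays, gave 0.16 with hairpin 1 and -0.16 with hairpin 2.

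SNHG7 had 3 probes above background that differed in sign. The brightest gave log2 ratios of 0.00 with hairpin 1 and -0.17 with hairpin 2, another gave -0.32 and -0.22, and the dimmest gave -0.06 and 0.41. SNHG4, above background with both hairpins and not in the control, was at least 1.22-fold higher with the hairpins on background-corrected values (limma adjusted p = 0.994), and 1.06-fold uncorrected. Such a bound sets the bright group's mean against the higher of the dim signal and the lowest signal above background on that array. It holds on the background-corrected, normalized scale only, and 12 of 17 such bounds exceed the uncorrected fold. Every member with a bound passed the filter through the group where it is high, so the bound is partly fixed by the filter. Over the 13 tested SNHG genes the median log2 ratios were 0.04 with hairpin 1 and 0.04 with hairpin 2, and 6 were higher, 2 lower and 5 split.

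The MIR100HG and MIR99AHG hosts, whose miRNAs share seeds as printed above, both had negative ratios. MIR100HG had log2 values of 9.31 with hairpin 1 and 9.43 with hairpin 2, against 9.54 in the control. MIR99AHG had 6.65 with hairpin 1 and 7.04 with hairpin 2, against 7.16 in the control, so its log2 ratios were -0.52 and -0.12. Their mean was -0.32, or -0.16 uncorrected. The gap between the hairpins, -0.40, was among the widest of the members above background on all arrays. Uncorrected, the MIR99AHG log2 ratios were -0.25 with hairpin 1 and -0.06 with hairpin 2. A second MIR99AHG probe, above background in the control only, gave log2 ratios of -0.48 with hairpin 1 and -0.53 with hairpin 2. It counts as above background only through the array where it is high, so nothing is read from its ratios.

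MIR181A2HG had log2 values of 7.20 with hairpin 1 and 7.31 with hairpin 2, against 6.94 in the control (limma adjusted p = 0.994), a mean log2 change of 0.32, or 0.16 uncorrected. MIR503HG had log2 ratios of 0.19 with hairpin 1 and 0.07 with hairpin 2, and MIR1915HG had 0.36 and -0.02. MIR9-1HG, the host of miR-9-5p, was the only member past 1.5-fold on the higher side. It read 182.8 with hairpin 1 and 199.2 with hairpin 2, both above background, against 158.2 in the control, not above background, and was at least 1.22-fold higher with the hairpins on background-corrected values (limma adjusted p = 0.994), and 1.17-fold uncorrected.

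TUG1, a widely expressed RNA with roles in the nucleus and cytoplasm, had the lowest unadjusted p of the members. Its log2 values were 12.14 with hairpin 1 and 12.13 with hairpin 2, against 11.84 in the control, a mean log2 change of 0.29 ± 0.10 (limma SE, n = 2 against 1; limma adjusted p = 0.994). Both hairpin arrays lay above the control, and they differed from each other by less than either did from it. LINC01315, a LINC gene with no role given here, had 6.66 with hairpin 1 and 6.68 with hairpin 2, against 6.22 in the control (mean log2 change 0.45 ± 0.22, or 0.18 uncorrected; limma adjusted p = 0.994).

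Transcripts named after a coding gene include a pair that flank PAXIP1, which codes for PTIP, a protein of DNA damage and histone methylation complexes. In RefSeq order PAXIP1-AS2 lies on one side of PAXIP1 and PAXIP1-DT on the other. PAXIP1-AS2 had log2 values of 6.78 with hairpin 1 and 6.77 with hairpin 2, against 6.23 in the control (mean log2 change 0.55 ± 0.22, or 0.23 uncorrected; limma adjusted p = 0.994). Its 2 other probes were not above background. PAXIP1-DT had 10.51 with hairpin 1 and 10.55 with hairpin 2, against 10.26 in the control, and its second probe gave log2 ratios of 0.89 and 0.63. That dimmer probe read 215.8 and 220.1 with the hairpins, against 175.9 in the control. Its control log2 value, 5.68, was near the lowest above background on that array, 5.63. Both of its ratios were past 1.5-fold, but the count of members past that size used the brighter probe. PAXIP1 itself had log2 ratios of -0.03 with hairpin 1 and -0.23 with hairpin 2, so both neighbours lay above the control while PAXIP1 lay below it.

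DHRS4-AS1, antisense to the retinal reductase gene DHRS4, had log2 values of 9.96 with hairpin 1 and 9.97 with hairpin 2, against 9.66 in the control (mean log2 change 0.31 ± 0.13; limma adjusted p = 0.994). Its second probe gave log2 ratios of 0.24 with hairpin 1 and 0.59 with hairpin 2. DHRS4 had -0.05 and -0.11. ZEB1-AS1, next to the gene of the mesenchymal regulator ZEB1, had 7.30 with hairpin 1 and 7.47 with hairpin 2, against 6.97 in the control, a mean log2 change of 0.41, or 0.22 uncorrected. Its second probe pointed the other way, with log2 ratios of -0.45 with hairpin 1 and -0.46 with hairpin 2.

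**Figure D3:**
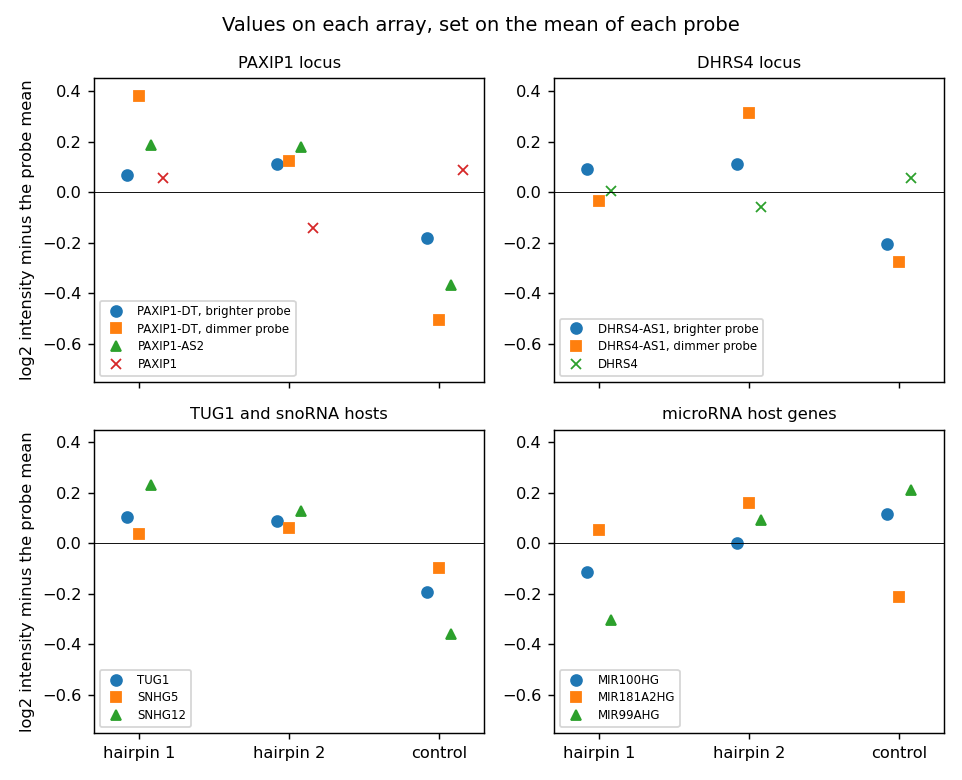
Normalized log2 intensity of named members on each array, less the mean of that probe over the 3 arrays, so that only differences within a probe are shown. The PAXIP1 panel has PAXIP1-AS2 and both PAXIP1-DT probes lowest in the control, and PAXIP1 lowest with hairpin 2. The microRNA host panel has MIR181A2HG lowest in the control and MIR100HG and MIR99AHG highest there.

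**Figure D4:**
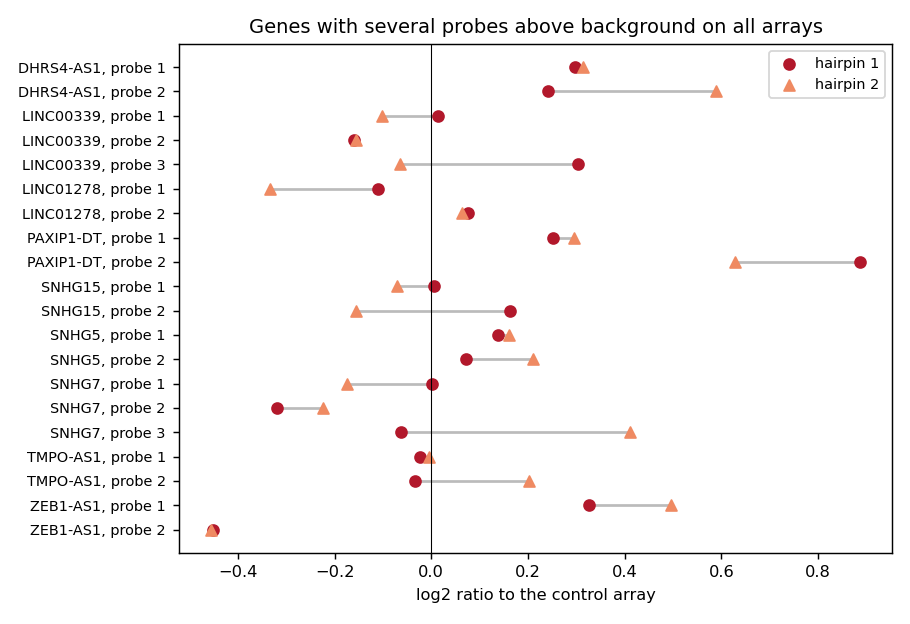
Log2 ratios to the control by probe for members with several probes above background on all arrays, with hairpin 1 and hairpin 2 for each probe. Both PAXIP1-DT probes and both DHRS4-AS1 probes lie above 0, while the 2 ZEB1-AS1 probes lie on opposite sides of 0.

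On the lower side, TAPT1-AS1 had log2 values of 6.25 with hairpin 1 and 6.25 with hairpin 2, against 6.80 in the control (mean log2 change -0.55 ± 0.23, or -0.23 uncorrected; limma adjusted p = 0.994). Its neighbour TAPT1 had log2 ratios of -0.03 and 0.11. LINC02901 had 5.95 with hairpin 1 and 6.16 with hairpin 2, against 6.70 in the control (mean log2 change -0.65 ± 0.26, or -0.25 uncorrected; limma adjusted p = 0.994). Both hairpin arrays lay below the control for each of these.

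The remaining members that were lowest while above background on all arrays were ZBTB11-AS1, CD27-AS1, CPEB2-DT and LINC02076. Their log2 ratios ran from -0.47 to -0.28 with hairpin 1 and from -0.55 to -0.35 with hairpin 2. Uncorrected, their mean log2 changes were -0.20, -0.15, -0.18 and -0.16, in the order named. ZBTB11, a zinc finger gene, had 0.30 and 0.28 beside ZBTB11-AS1 at -0.47 and -0.35. CPEB2, which codes for a regulator of mRNA translation, had 0.24 and 0.33 and was above background on 2 arrays only.

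Members seen on part of the arrays are given as bounds. LINC02875 read 149.2 with hairpin 1 and 159.4 with hairpin 2, neither above background, against 185.5 in the control, and was at least 1.24-fold lower with the hairpins (limma adjusted p = 0.994). LINC00853 read 150.4 with hairpin 1 and 164.1 with hairpin 2, against 178.1 in the control, and was at least 1.08-fold lower. LINC01751 read 157.5 and 166.4 with the hairpins, against 180.6 in the control, and was at least 1.13-fold lower. All 3 were above background in the control only.

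ERCC6L2-AS1 read 150.1 and 152.6 with the hairpins, against 175.0 in the control, and was at least 1.015-fold lower. DLG5-AS1 and LINC01391 were named after their values were seen, because they met the 1.5-fold size. DLG5-AS1 read 158.9 and 166.0 with the hairpins, against 181.1 in the control, and was at least 1.14-fold lower. LINC01391 read 157.4 and 175.3 with the hairpins, against 184.6 in the control, and was at least 1.22-fold lower on background-corrected values, and 1.15-fold uncorrected. These 3 were also above background in the control only.

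LINC02400 read 163.1 with hairpin 1 and 188.6 with hairpin 2, against 150.0 in the control, and only hairpin 2 was above background. LINC01547 and MICB-DT, above background with both hairpins and not in the control, were at least 1.19-fold and at least 1.17-fold higher with the hairpins on background-corrected values, and 1.11-fold and 1.10-fold uncorrected. For every one of them limma gave an adjusted p of 0.994. LINC02400, LINC01547 and MICB-DT passed the filter through hairpin arrays, where they are high, so nothing is read from their size.

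Of the bright antisense members, OIP5-AS1, known as a decoy for the RNA-binding protein HuR, had log2 ratios of -0.03 with hairpin 1 and -0.18 with hairpin 2. EPB41L4A-AS1, which hosts SNORA13, had 0.05 and 0.07, and KRT10-AS1 had 0.11 and 0.10. RAMP2-AS1 had -0.04 and 0.14. ITPK1-AS1 had 0.09 and 0.26, beside -0.20 and -0.23 for ITPK1, which codes for an inositol phosphate kinase.

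LINC01018 had log2 ratios of 0.00 with hairpin 1 and 0.15 with hairpin 2, LINC00623 had 0.13 and -0.02, and LINC00938 had 0.04 and -0.31. LINC00294 had 0.00 and -0.08. LINC00339 had 3 probes above background on all arrays, and the brightest gave 0.01 and -0.10, another 0.30 and -0.06, and the dimmest -0.16 and -0.16. Over the 37 tested LINC genes, 13 were higher with both hairpins, 12 lower and 12 split, and the medians were 0.00 and 0.02. Among divergent transcripts, the median was -0.02 with hairpin 1 and -0.22 with hairpin 2, with 2 of 12 higher, 5 lower and 5 split. FLVCR1-DT had 0.10 and -0.20, PPP3CA-DT -0.09 and -0.47, and SLC12A2-DT -0.07 and -0.24. The intronic transcript CPS1-IT1 had -0.03 and -0.03.

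The hairpins were also set against each other. The median gap between the hairpins was 0.15 on the log2 scale over members above background on all arrays. TFIP11-DT had log2 values of 6.66 with hairpin 1 and 6.02 with hairpin 2, against 6.19 in the control, so the hairpins lay on opposite sides of it. FBXL19-AS1 had 6.21 with hairpin 1 and 5.67 with hairpin 2, against 5.92 in the control. The hairpin 1 minus hairpin 2 difference was 0.63 for TFIP11-DT, 0.54 for FBXL19-AS1, 0.47 for LINC00863 and 0.40 for ANKRD13C-DT. It was -0.40 for MCM3AP-AS1, -0.34 for GPC1-AS1 and -0.33 for OTUD6B-AS1. MCM3AP-AS1 had 5.89 with hairpin 1 and 6.29 with hairpin 2, against 5.65 in the control. Without background correction the 2 log2 ratios of each of these members lay closer together. With hairpin 1 and hairpin 2 in that order, they were 0.19 and -0.06 for TFIP11-DT and 0.10 and -0.08 for FBXL19-AS1. They were 0.20 and 0.04 for LINC00863, 0.01 and -0.16 for ANKRD13C-DT, and 0.07 and 0.21 for MCM3AP-AS1. GPC1-AS1 had -0.01 and 0.12, and OTUD6B-AS1 0.03 and 0.20. With 1 array per hairpin, the differences between the hairpins have no replicate check.

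Of 64 tested members with a suffix, 48 had a tested namesake gene. Past 1.5-fold with both hairpins were 2 of these namesakes, beside 0.973% of all genes tested and 8.34% of genes not above background on all arrays. They were FBXL19, with log2 ratios of -0.99 and -1.24, and BIN3, with -0.65 and -0.86. Each was above background in the control only. Both passed the filter through the group where they are high, so nothing is read from this count. Above background on all arrays on both sides were 29 pairs. In these 29 pairs the member was higher with both hairpins in 13 and lower in 9. Both partners were higher in 5 and both lower in 4. The member was higher and its partner lower in 4 pairs, made by PAXIP1-AS2, PAXIP1-DT, DHRS4-AS1 and ITPK1-AS1, and the reverse held in 2, CNN3-DT and ZBTB11-AS1. The mean log2 changes of member and partner had a Pearson r of -0.01 across the 29 pairs, a description over genes that share arrays and, for PAXIP1, a partner.

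**Figure D5:**
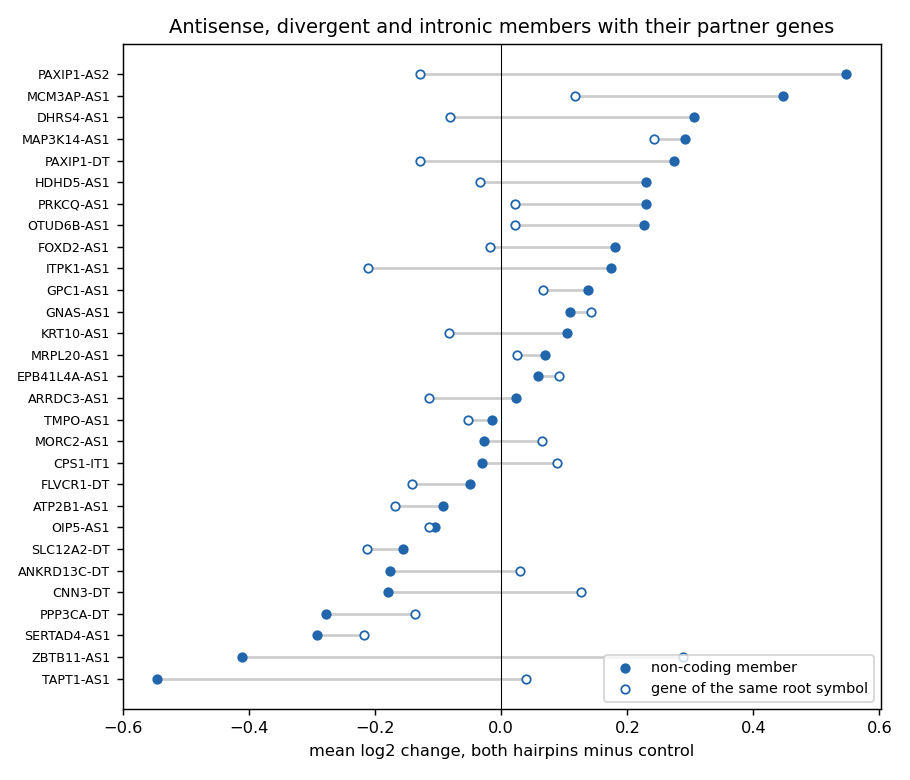
Mean log2 change, hairpins minus control (horizontal axis), for the 29 pairs above background on all arrays. Each row is a pair, sorted by the member's change. Filled points are members, open points the genes they are named after, and a grey line joins them. Pearson r across the pairs was -0.01.

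Genes that make or remove these RNAs were read from fixed lists, and 0 genes in any of them passed the limma test. Of the snoRNP proteins, which bind and mature snoRNAs, 14 of 14 were tested, with 5 higher and 6 lower with both hairpins and medians of 0.00 and -0.03. NUFIP1, an assembly factor, had log2 ratios of -0.52 with hairpin 1 and -0.27 with hairpin 2, and RUVBL1, an ATPase of the same assembly, had -0.21 and -0.22. NOP56, a core protein of box C/D snoRNPs that is also a snoRNA host, had 0.13 and 0.31. Of 18 coding snoRNA hosts, 15 were tested, with 6 higher and 5 lower. EEF2, the translation elongation factor, had 0.21 and 0.16, and PPAN, a ribosome assembly factor, -0.15 and -0.18.

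Of 14 nonsense-mediated decay genes, 10 were tested, with 2 higher, 4 lower and medians of -0.10 and -0.00. SMG1, the kinase that acts on UPF1, had log2 ratios of -0.36 with hairpin 1 and -0.08 with hairpin 2. MAGOH, of the exon junction complex, had -0.13 and -0.13. SMG6, the endonuclease of the pathway, had 0.51 and 0.79, but it was above background on 1 array only. Of 18 nuclear RNA decay genes, which belong to the exosome and its adaptors, 15 were tested, with 3 higher, 7 lower and medians of -0.08 and -0.07. ZCCHC8 had -0.19 and -0.22, EXOSC1 -0.16 and -0.25, and RBM7 0.15 and 0.33.

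Of 13 miRNA processing genes, 12 were tested, with 5 higher and 4 lower. DROSHA, which cuts primary transcripts, had log2 ratios of 0.06 with hairpin 1 and 0.18 with hairpin 2, and DICER1, which cuts precursors, had 0.20 and 0.08. PRKRA, a partner of DICER1, had -0.24 and -0.31 (limma adjusted p = 0.994). Of 16 paraspeckle proteins, which assemble on the NEAT1 RNA, 14 were tested, with 5 higher, 4 lower and medians of 0.01 and 0.03. SFPQ had -0.23 and -0.14, HNRNPA1 -0.16 and -0.21, and TAF15 -0.14 and -0.12.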

How the data were processed

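The submitters' processing notes name GenomeStudio, whose version is not given in the sources used here. The authors deposited a table of probe intensity values without normalization, with a detection p-value per probe deposited beside each, and a second table of processed intensity values by the authors, used here as an alternative. The intensities were background-corrected, quantile-normalized and put on the log2 scale with neqc (limma 3.58.1 in R 4.3.3, offset 16), without 14 probes that have no value in the first table. Probes above background on at least 1 array were kept, with the probe of highest mean per gene. Both hairpin arrays were set against the control with lmFit and eBayes with an intensity trend, Benjamini-Hochberg over 10692 genes, threshold 0.05. The fit has 1 residual degree of freedom and assumes that the lone control varies like the hairpins. The number of arrays limits the precision. Code was tested on simulated data.

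Named genes were those listed in the symbol rule, the 5 brightest per class, the 6 highest and 6 lowest above background on all arrays by the smaller ratio, up to 4 each way seen on part of the arrays, the 4 furthest apart between hairpins each way, namesake genes, PARP1, and up to 3 per pathway list. Members and lists were chosen with earlier results of these data known. Alternatives were other background corrections, normalizations, filters and probe rules, and leaving out each hairpin.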

Additional observations from a re-analysis of the deposited data

How the results depend on the processing

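No paired analysis was possible because the control is 1 sample, so the groups can share at most 1 replicate number. The count of members passing the limma test was 0 under every alternative run. The count past 1.5-fold with both hairpins, 7, became 0 without background correction, 0 in the authors' processed table, 0 among members above background on all arrays, 1 with an offset of 50 and 1 at 2-fold. It became 11 of 208 members at detection p under 0.05 and 11 of 510 with no filter. Leaving out 1 hairpin gave 12 to 17, where a single array has to pass. No count over all genes was made for that setting, so nothing is read from it. The same count over all 10692 genes, 104 (0.973%), became 2 without background correction, 2 in the authors' processed table and 11 with an offset of 50. Other filters change the number tested. The count was 21 of 9697 genes above background on all arrays and 155 of 12455 genes at detection p under 0.05 (1.24%). It was 158 of 20044 genes with no filter (0.788%) and 167 of 14282 probes with every probe (1.17%). Over all genes, 3 passed the test with median scaling and 1 with probes averaged per gene. The median log2 change of the members, 0.010, was 0.0046 without background correction, 0.063 with median scaling, 0.0036 in the authors' processed table, 0.031 above background on all arrays, 0.0055 with no filter, -0.0033 with probes averaged per gene and 0.021 with every probe, and 0.013 to 0.019 leaving out a hairpin. Median scaling moved the median of all genes by 0.13 with hairpin 2. The PARP1 log2 change was -2.33 with median scaling, -2.39 with probes averaged per gene, and -2.95 to -1.82 leaving out a hairpin. With median scaling limma's prior degrees of freedom were infinite, against a median of 7.30 in the main fit. Each gene's variance there came from the intensity trend alone, so p-values under median scaling are not comparable with the main ones. Of the named genes, ZEB1-AS1 turned to -0.02 with the mean of its probes. TUG1 ranged from 0.27 to 0.35 and SNHG12 from 0.23 to 0.60. The cause of these shifts was not tested. Signals near background limit the dim members.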
